A study of Arabidopsis thaliana with 4 samples.

Results

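IGN25 is an intergenic noncoding locus of Arabidopsis thaliana that is transcribed by RNA polymerase V (Pol V), and the values below describe where its transcripts end. It was taken by name: every read that the deposited tables assign to IGN25 was used, and no read was an exact repeat of another. It is 1 of 7 loci read in the series. IGN25 accounted for 52879 of 589628 reads: 28398 in Col-0, 10636 in rrp6L1-1, 13843 in rrp6L1-2 and 2 in nrpe1-11.

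All plants were of the Col-0 ecotype, and RNA came from above-ground tissue at an age of 2.5 weeks, grown with 16 hours of light and 8 hours of dark. The wild type (Col-0) was compared with 2 independent mutants of the exonuclease gene RRP6L1, named rrp6L1-1 and rrp6L1-2. The nrpe1-11 mutant, with a mutation in the gene of the largest Pol V subunit, was the control without Pol V. The nature of the rrp6L1 mutations is not given in the sources used here. RNA ends were read by 3′ RACE: a poly(A) tail was added to total RNA, cDNA was primed on the tail, and nested PCR with a locus primer amplified the product. There was a single library for each genotype, so the differences below could not be checked against replicates, and none was tested. Intervals in parentheses are exact 95% intervals and cover counting error only. PCR copies cannot be recognised here, since the reads have no molecular identifiers, so the true uncertainty is larger.

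Pol V is a plant-specific relative of RNA polymerase II. Its noncoding transcripts stay near the chromatin they come from, where ARGONAUTE proteins loaded with small interfering RNAs pair with them and bring in the machinery that methylates DNA. RRP6L1 is a relative of yeast RRP6, a nuclear enzyme that removes nucleotides from the 3′ end of RNA and is known for trimming and degrading noncoding transcripts. The comparison asks whether Pol V transcripts end elsewhere when this exonuclease is mutated.

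The recorded length counts bases along the locus up to the 3′ end, with 1 nt at coordinate 5459179 of chromosome 4 (TAIR10). It is a position along the locus and not the full size of an RNA. Lengths grow with the coordinate, so IGN25 is read on the plus strand, although the deposited strand is minus for every read. The last length with at least 5 ends over the 3 libraries was 195 nt, at coordinate 5459373. No annotated gene of TAIR10.1 overlaps this span. The nearest genes are AT4G08570, 3079 nt upstream, and AT4G08580, 2025 nt downstream.

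The sequence of the span is printed once, because the bases around the ends bear on how they are read. It is the RefSeq copy of TAIR10.1, chr4:5459179-5459373, plus strand. Capitals mark the 15 positions that held at least 5% of the ends in 1 or more of Col-0, rrp6L1-1 and rrp6L1-2.
IGN25: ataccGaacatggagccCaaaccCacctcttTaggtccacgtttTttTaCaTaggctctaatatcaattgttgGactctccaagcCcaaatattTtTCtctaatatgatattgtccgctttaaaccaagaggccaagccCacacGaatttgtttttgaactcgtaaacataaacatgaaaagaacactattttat

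IGN25 was read in wild type and in both rrp6L1 mutants, and almost not at all without Pol V. It gave 20.1% of the Col-0 reads (19.9% to 20.3%), the highest share of the 7 loci in that library, with 28398 reads against 27611 at IGN17. This rank was taken after 27611 exact repeats, 0 of them at IGN25, were dropped from the Col-0 library. With the repeats kept the IGN25 share was 16.8%, and the rank was not taken. The number of repeats equals that of the IGN17 reads kept. If they all lay at IGN17, that locus would rank above IGN25 with the repeats kept. IGN25 gave 9.68% of the rrp6L1-1 reads (9.50% to 9.86%) and 15.5% of the rrp6L1-2 reads (15.3% to 15.7%). In nrpe1-11, the deepest library, 2 of 248940 reads were from IGN25, a share of 0.000803% (9.73e-05% to 0.00290%). Both of these reads ended at 32 nt. The shares are those of pooled PCR products and were not tied to the amount of RNA, so they do not measure the level of the transcript.

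The ends were concentrated on few positions in every library, and the leading positions held more of them in the mutants. Col-0 ends fell on 133 distinct positions, rrp6L1-1 ends on 100 and rrp6L1-2 ends on 112, numbers that also depend on depth. Of these, 5 positions were enough to hold at least 50% of the Col-0 ends, against 3 in each mutant. To hold at least 90% took 14 positions in both Col-0 and rrp6L1-1, and 12 for rrp6L1-2, so by this count rrp6L1-1 was no more concentrated than wild type. The effective number of positions, which is the inverse of the summed squared shares, was 11.3, 6.66 and 8.86 in Col-0, rrp6L1-1 and rrp6L1-2, respectively. The leading position of each library was a different one. It was 18 nt in Col-0, with 14.8% of the ends, 98 nt for rrp6L1-1, with 31.9%, and 32 nt for rrp6L1-2, with 20.8%.

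**Figure D1:**
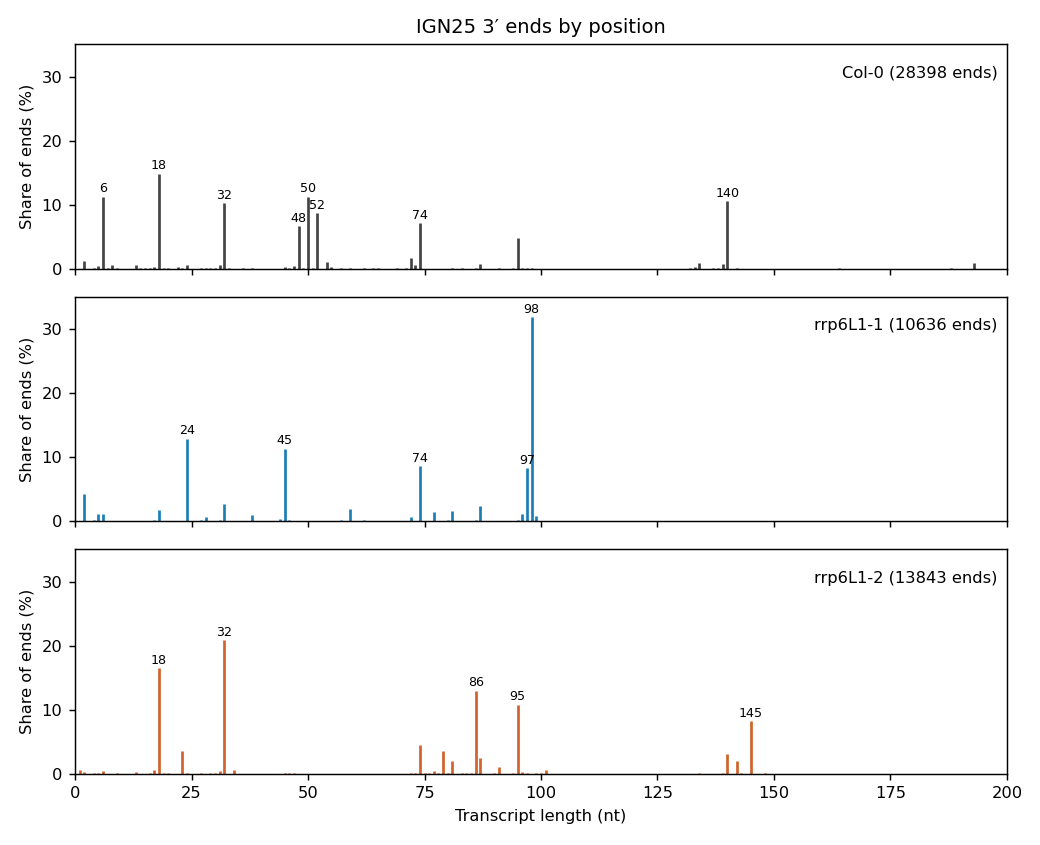
Share of IGN25 ends at each length from 1 to 200 nt, in 1 panel per library, with the length printed over every position that held at least 5%. Col-0 has 8 such positions, and each mutant has 5; 98 nt in rrp6L1-1, at 31.9%, is the highest in the plot.

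The wild-type profile had 8 positions of at least 5%, which together held 80.3% of the ends. A first group lay close to the start of the recorded span. It comprised 6 nt with 11.2% (10.9% to 11.6%), 18 nt with 14.8% (14.4% to 15.2%) and 32 nt with 10.2% (9.86% to 10.6%). A tight group followed in the middle, at 48, 50 and 52 nt, with 6.58%, 11.2% and 8.66%. Taken from 48 to 52 nt, it held 26.6% of the Col-0 ends (26.1% to 27.1%). A pair of separate positions completed the profile, 74 nt with 7.09% (6.79% to 7.39%) and 140 nt with 10.5% (10.1% to 10.9%). The position at 95 nt was just under the threshold, with 4.76%.

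The middle group was the part of the wild-type profile that both mutants lacked. From 48 to 52 nt lay 15 of 10636 rrp6L1-1 ends, a share of 0.141% (0.0790% to 0.232%), and 7 of 13843 rrp6L1-2 ends, a share of 0.0506% (0.0203% to 0.104%). At 52 nt, 2460 ends were read in Col-0 and 0 in either mutant. Set against a floor of 3 reads per library, the share at 52 nt was 307-fold lower in rrp6L1-1 and 400-fold lower in rrp6L1-2. These folds depend on the floor and are not lower bounds. The exact upper limits that 0 reads allow are 0.0347% for rrp6L1-1 and 0.0266% for rrp6L1-2, both above the floor. At 48 nt the share was 140-fold lower in rrp6L1-1 (59.9 to 432) and 228-fold lower in rrp6L1-2 (88.9 to 837). The end at 6 nt was scarcer in both mutants as well, where 1.05% (rrp6L1-1) and 0.390% (rrp6L1-2) stood against the wild-type 11.2%.

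Taken singly, other wild-type positions were kept by 1 allele and not by the other. Ends at 18 nt made up 16.5% in rrp6L1-2 (15.9% to 17.1%), close to the 14.8% of Col-0, but 1.73% in rrp6L1-1 (1.49% to 2.00%). Ends at 32 nt made up 20.8% in rrp6L1-2, 2.04-fold the Col-0 share (1.94 to 2.15), and 2.75% in rrp6L1-1, a share 3.72-fold lower than in Col-0 (3.30 to 4.21). At 95 nt, rrp6L1-2 had 10.8% (10.3% to 11.3%) and rrp6L1-1 had 0.169% (0.1003% to 0.267%). In fold terms rrp6L1-2 stood nearer to Col-0 than rrp6L1-1 did in each of these 3 places. In percentage points it did so at 18 nt alone, since it exceeded Col-0 at 32 and 95 nt. Summed from 95 to 98 nt, however, rrp6L1-1 was highest, at 41.4%, followed by rrp6L1-2 at 11.2% and Col-0 at 4.94%. The low value of rrp6L1-1 at 95 nt therefore holds for that single position and not for its neighbours. The long end at 140 nt was lower in both mutants, by unequal amounts: 0.0564% in rrp6L1-1 (0.0207% to 0.123%) and 3.07% in rrp6L1-2 (2.79% to 3.37%) against 10.5%.

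The position at 74 nt was the steadiest of the 15. Its share was 7.09% in wild type, 8.59% in rrp6L1-1 (8.07% to 9.14%) and 4.44% in rrp6L1-2 (4.11% to 4.80%). Lowering the threshold to 1% gave 28 frequent positions, of which 3 passed in all 3 libraries: 18, 32 and 74 nt. No position passed 5% in all 3.

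The positions that were frequent in 1 mutant alone differed between the alleles. In rrp6L1-1, 24 nt held 12.9% of the ends (12.2% to 13.5%), 45 nt held 11.3% (10.7% to 11.9%), 97 nt held 8.27% (7.76% to 8.81%) and 98 nt held 31.9% (31.0% to 32.8%). These 4 positions made up 64.3% of the rrp6L1-1 ends. Each of them held at most 0.630% in Col-0 and at most 0.123% in rrp6L1-2. In rrp6L1-2, 86 nt held 13.0% of the ends (12.4% to 13.5%) and 145 nt held 8.17% (7.72% to 8.64%). At 86 nt Col-0 had 0.102% and rrp6L1-1 0.226%, and at 145 nt Col-0 had 5 reads and rrp6L1-1 had 0, which allows a share of up to 0.0347%. No position reached 5% in both alleles, though 74 nt came near, with 8.59% in rrp6L1-1 and 4.44% in rrp6L1-2. At a threshold of 1%, 5 positions passed in both alleles, of 16 in rrp6L1-1 and 13 in rrp6L1-2. These counts were not made at the other loci.

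Counting positions gave the same picture on a wider set. A position was compared between 2 libraries when it held at least 1% of the ends in 1 or both of them, and was counted as different when the shares differed by at least 4-fold. Between rrp6L1-1 and Col-0, 16 of 22 IGN25 positions differed, 9 higher and 7 lower in the mutant, where 50.9% of the 161 positions compared over all 7 loci did. Between rrp6L1-2 and Col-0 it was 12 of 19, 7 higher and 5 lower, against 49% of 151 over all loci. Between the alleles it was 18 of 24, with 10 higher and 8 lower in rrp6L1-2, against 48% of 152. As shares, the IGN25 counts were 72.7%, 63.2% and 75%, each above the share over all loci; the 3 comparisons use the same 3 libraries, and the excess was not tested. By direction, 28% of the positions over all loci were higher in rrp6L1-1 than in Col-0 and 23% lower, against 40.9% and 31.8% at IGN25. For rrp6L1-2 against Col-0 these shares were 23.2% and 25.8% over all loci, against 36.8% and 26.3% at IGN25. The share lower in rrp6L1-2 was thus near that over all loci. For rrp6L1-2 against rrp6L1-1 the shares were 21.1% and 27% over all loci, against 41.7% and 33.3% at IGN25. With a minimum share of 0.5%, 25 of 32 positions differed in rrp6L1-1 and 22 of 32 in rrp6L1-2, against 53.5% and 51% over all loci. In windows of 5 nt, 11 of 16 differed between the alleles, against 42.2% of all windows compared. Between rrp6L1-2 and Col-0, 8 of 15 such windows differed, or 53.3%, against 46.9% at the other loci.

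Despite the different positions, both mutants had more ends in the stretch from 76 to 100 nt. In this window of 25 nt lay 6.03% of wild-type ends (5.76% to 6.32%), 48.6% of the rrp6L1-1 ends (47.6% to 49.5%) and 35.0% of the rrp6L1-2 ends (34.2% to 35.8%). It was the window with the largest difference from Col-0 in both alleles, at 42.5 and 28.9 percentage points. For rrp6L1-2 this ranking depended on the windows: the largest difference was -15.1 points at 1 to 50 nt with windows of 50 nt, and -28.5 points at 39 to 63 nt with windows shifted by 12 nt. The 3 windows of 25 nt before 76 nt all held fewer ends in the mutants. In the order Col-0, rrp6L1-1, rrp6L1-2, the shares were 30.7%, 21.9% and 23.1% from 1 to 25 nt. They were 30.0%, 17.4% and 22.5% from 26 to 50 nt, and 19.7%, 11.9% and 4.96% from 51 to 75 nt. Beyond 100 nt the alleles parted. From 126 to 150 nt rrp6L1-1 had 0.103% (0.0516% to 0.185%), while rrp6L1-2 had 13.7% (13.1% to 14.3%) and Col-0 12.6% (12.2% to 13.0%).

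**Figure D2:**
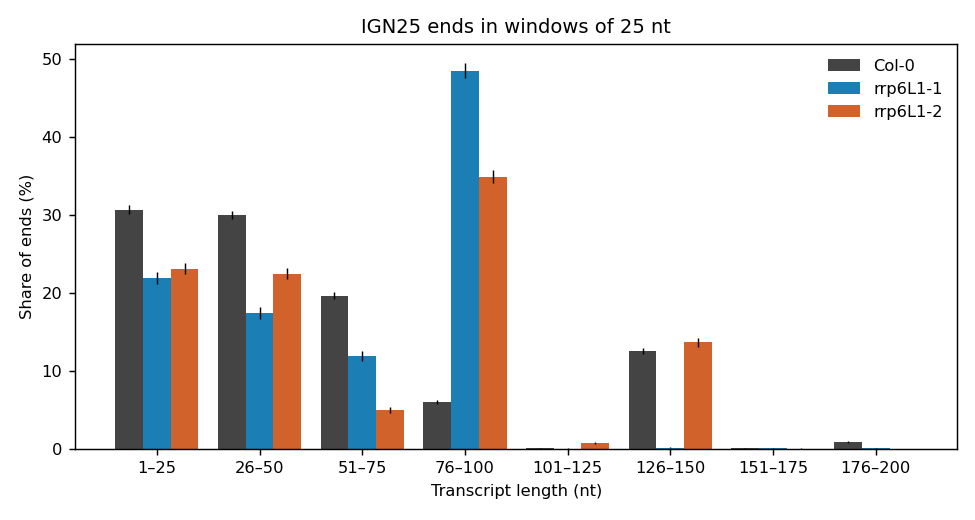
Share of IGN25 ends in consecutive windows of 25 nt, with exact 95% counting intervals as error bars and 1 bar per library. The window from 76 to 100 nt holds 6.03% (Col-0), 48.6% (rrp6L1-1) and 35.0% (rrp6L1-2), and the one from 126 to 150 nt holds ends in Col-0 and rrp6L1-2 but almost none in rrp6L1-1.

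Within the window from 76 to 100 nt the alleles shared few positions. Of its ends, 12.9% were in common between rrp6L1-1 and rrp6L1-2, position by position, against 44.4% between rrp6L1-2 and Col-0 and 10.3% between rrp6L1-1 and Col-0. Over the whole locus, 17.7% of the ends were in common between the alleles, 42.2% between rrp6L1-2 and Col-0 and 19.5% between rrp6L1-1 and Col-0. Between the alleles IGN17 was lower still, at 13.2%, and the remaining loci ran from 32.5% at IGN5b to 83.6% at IGN29. With windows of 25 nt the IGN17 value rose to 90.5%, so a low share that rises with width was not particular to IGN25. At IGN25 the alleles had 23.3% in common with windows of 5 nt and 38.9% with windows of 10 nt, still the lowest or nearly the lowest of the 3 pairs. With windows of 25 nt they had 79.4%, the highest. This last value depended on where the windows were placed: shifted by 12 nt, a setting chosen after seeing the data, they gave 51.6%, the lowest of the 3 pairs. With the shifted windows, the stretch from 64 to 88 nt held 10.5%, 15.6% and 27.1% of the ends in Col-0, rrp6L1-1 and rrp6L1-2, and from 89 to 113 nt it was 5.11%, 42.5% and 13.4%. Both stretches were thus higher in both mutants, the nearer one more in rrp6L1-2 and the farther one more in rrp6L1-1.

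**Figure D3:**
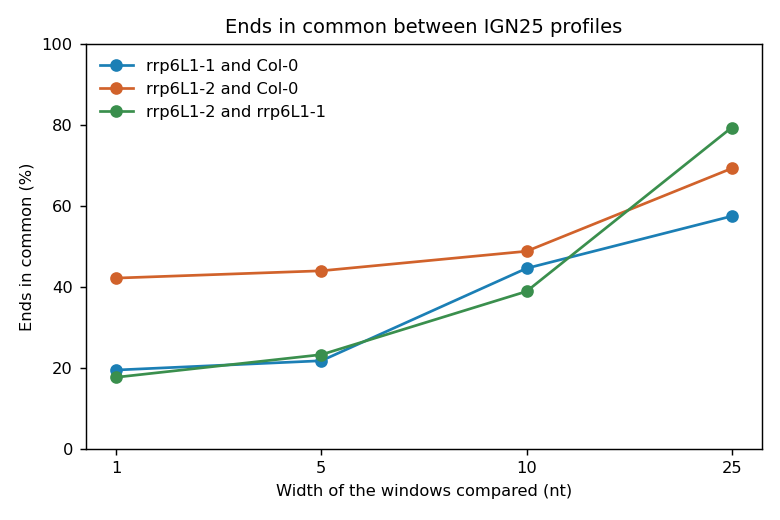
Ends in common between IGN25 profiles, in percent, for the 3 pairs of libraries and for windows of 1, 5, 10 and 25 nt counted from length 1 (widths not to scale on the axis). The alleles have 17.7% in common at single positions and 79.4% with windows of 25 nt.

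The distributions of length reflected these shifts unevenly. In wild type the median was 50 nt (49 to 50 nt), and in the mutants it was 74 nt (74 to 74 nt for rrp6L1-1, 74 to 77 nt for rrp6L1-2), so both mutants were displaced downstream by 24 nt. The wild-type quartiles of 18 and 74 nt compared with 32 and 98 nt for rrp6L1-1 and with 32 and 95 nt for rrp6L1-2. By the 90th percentile the alleles had parted, at 98 nt (rrp6L1-1) and 142 nt (rrp6L1-2), with the wild type at 140 nt. At the other 6 loci the median displacement ran from -14 to 11 nt in rrp6L1-1 and from -29 to 13 nt in rrp6L1-2. By the median, IGN25 was displaced farther downstream than any other locus in either allele; no test was made of this. By the mean IGN5b was displaced farther, by 14.4 and 15.5 nt against 12.2 and 12.1 nt at IGN25, and by the upper quartile too, by 44 and 55 nt against 24 and 21 nt.

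**Figure D4:**
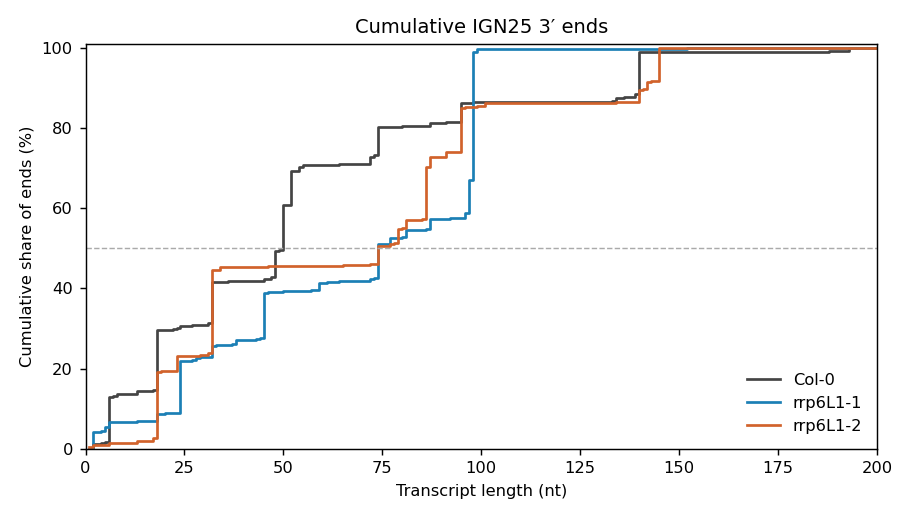
Cumulative share of IGN25 ends by length in Col-0, rrp6L1-1 and rrp6L1-2, with a dashed line at 50%. The Col-0 curve crosses the line at 50 nt and both mutant curves at 74 nt, and the rrp6L1-2 curve is nearly flat from 35 nt to 73 nt just below the line.

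The equal medians of the mutants rested on different grounds. In rrp6L1-2 the ends formed a short and a long part, with 45.6% at 50 nt or less and 4.96% from 51 to 75 nt, so that the median stood at the edge of a nearly empty stretch.  Counting only reads with a mapping quality score of 44, the highest in the tables, moved the rrp6L1-2 median to 32 nt and the Col-0 median to 48 nt, and turned the displacement in rrp6L1-2 to -16 nt. The rrp6L1-1 median stayed at 74 nt. This score was given to 77.6%, 71.7% and 76.4% of the reads of Col-0, rrp6L1-1 and rrp6L1-2, and it went with length. In Col-0 it was 83.8% of the ends of at most 75 nt and 52.3% of the longer ones. In rrp6L1-2 it was 85.0% and 67.7%, and in rrp6L1-1 72.2% and 71.1%. At the 140 nt position of Col-0 it was 44.4%. The part of the score in the differences between libraries was not tested.

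The displacement of rrp6L1-1 rested largely on the single position at 98 nt. Without the leading position of each library, the displacements were -5 nt (rrp6L1-1) and 36 nt (rrp6L1-2). When every position with at least 2 ends had equal weight, they were -13.5 and 11 nt.

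The base that follows an end in the genome differed between the libraries at IGN25. All 8 Col-0 positions of at least 5% lay directly before a genomic A, but 2 of 5 in rrp6L1-1 and 3 of 5 in rrp6L1-2. At a threshold of 1% the contrast was smaller, with 9 of 11 in Col-0, 10 of 16 in rrp6L1-1 and 9 of 13 in rrp6L1-2. These counts were not made at the other loci. The sequences around the positions of at least 5% follow, with 10 bases on each side of the end. Capitals mark the end base and any run of A that follows it directly. The ends frequent in Col-0 come first, with the coordinate of the end base on chromosome 4.
6 nt, 5459184: tttccataccGAAcatggagc
18 nt, 5459196: acatggagccCAAAcccacct
32 nt, 5459210: cccacctcttTAggtccacgt
48 nt, 5459226: cacgttttttTAcataggctc
50 nt, 5459228: cgtttttttaCAtaggctcta
52 nt, 5459230: tttttttacaTAggctctaat
74 nt, 5459252: tcaattgttgGActctccaag
140 nt, 5459318: aggccaagccCAcacgaattt
The ends that passed 5% in a mutant and not in Col-0 were the following, the first 4 in rrp6L1-1 and the last 3 in rrp6L1-2.
24 nt, 5459202: agcccaaaccCAcctctttag
45 nt, 5459223: gtccacgtttTtttacatagg
97 nt, 5459275: caaatattttTctctaatatg
98 nt, 5459276: aaatatttttCtctaatatga
86 nt, 5459264: ctctccaagcCcaaatatttt
95 nt, 5459273: cccaaatattTttctctaata
145 nt, 5459323: aagcccacacGAAtttgtttt

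Over all reads, 86.0% of the Col-0 ends (85.6% to 86.4%) lay directly before a genomic A, while rrp6L1-1 had 38.9% (38.0% to 39.9%) and rrp6L1-2 had 63.1% (62.3% to 63.9%) of its ends there. Of the 132 positions of the span that are not themselves A, 30.3% are followed by an A. The ends of all 3 libraries were above this share, Col-0 the most. The span also holds 63 A positions, and an end on any of them is mostly recorded before its run of A. Evenly spread ends would therefore also lie above 30.3%, so this share is not a baseline for an excess. Of the 195 positions, the 63 that are A and the 40 others followed by an A would mostly give ends recorded before an A. By these counts the 38.9% of rrp6L1-1 was not above what evenly spread ends would give. Few ends were recorded on an A, with shares of 1.08%, 0.677% and 1.34% in Col-0, rrp6L1-1 and rrp6L1-2. In this assay a tail of A is added to the RNA, and an end within a genomic run of A cannot be told from an end just before that run once the tail is removed. An end before an A may therefore lie farther downstream than recorded. The runs that follow IGN25 ends were at most 3 nt long, and moving every end to the last A of its run changed the medians to 51, 75 and 75 nt and left both displacements at 24 nt.

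Counted by distinct position rather than by read, the shares before an A were nearly alike. Of the positions with at least 2 ends, 30.6%, 28.4% and 30.2% lay before an A in Col-0, rrp6L1-1 and rrp6L1-2. The positions themselves were not all the same ones: 52 nt, before an A, had 2460 ends in Col-0 and 0 in the mutants. In rrp6L1-1, 40.2% of the ends were at 97 and 98 nt and 11.3% at 45 nt, 3 positions within or next to runs of T and not before an A.

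A lower share before an A than in Col-0 was recorded in both mutants at 5 of 7 loci, by differing amounts. At the other 6 loci the Col-0 share of ends before an A ran from 59.8% at IGN5t to 87.3% at IGN5b. Besides IGN25, both mutants were lower at IGN23, with 69.8% and 72.6% against 77.7%, and at IGN35, with 70.7% and 79.5% against 79.9%, the second value lying within the counting interval of Col-0 (79.2% to 80.5%). They were also lower at IGN5t, with 57.8% and 56.8% against 59.8%, and at IGN29, where the 3 libraries had 79.3%, 78.9% and 76.6%. At IGN17 and IGN5b the alleles went opposite ways. In rrp6L1-1 it was 17.7% at IGN17 against 61.9% in Col-0, but 92.7% at IGN5b against 87.3%. In rrp6L1-2 it was 54.8% at IGN5b but 90.6% at IGN17. Differences from Col-0 of more than 20 percentage points in both alleles and in 1 direction were seen at IGN25 and at no other of the 7 loci, by a comparison chosen after the values were seen and not tested.

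**Figure D5:**
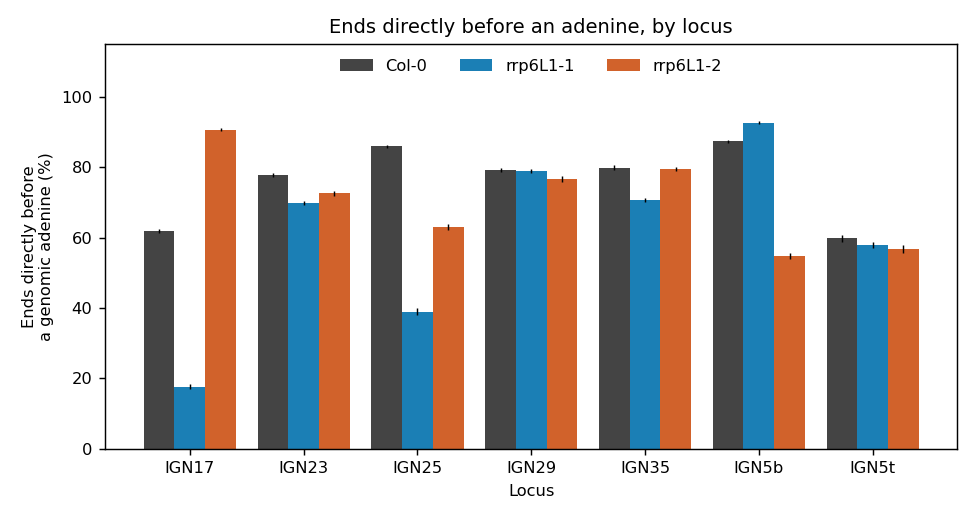
Share of ends whose next genomic base is an adenine, for the 7 loci and the 3 libraries, with exact 95% counting intervals as error bars. At IGN25 the bars stand at 86.0% (Col-0), 38.9% (rrp6L1-1) and 63.1% (rrp6L1-2).

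When ends before an A were left out, the mutants still ended farther downstream than Col-0. The remaining 3981 wild-type ends had a median of 72 nt, the 6494 of rrp6L1-1 one of 98 nt and the 5110 of rrp6L1-2 one of 86 nt, displacements of 26 and 14 nt. Among the ends before an A alone, the order was the reverse, with a median of 48 nt for wild type, 24 nt for rrp6L1-1 and 32 nt for rrp6L1-2. The downstream displacement of both mutants was therefore not present in this class of ends.

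A short sequence recurred at frequent ends. The letters GCCCA occur 3 times on the plus strand of the span and 0 times on the minus strand, and the last C of the GCCC lies at 18, 87 and 140 nt. Ends on these 3 positions made up 26.0% of the wild-type total (25.5% to 26.5%), 4.15% of that of rrp6L1-1 (3.78% to 4.54%) and 22.1% of that of rrp6L1-2 (21.4% to 22.8%). The Col-0 share came from 18 and 140 nt, while 87 nt held 0.747% there, 2.36% in rrp6L1-1 and 2.54% in rrp6L1-2. The position at 86 nt, with 13.0% of the rrp6L1-2 ends, lies within the same letters and is not in these sums. Of the 95307 consecutive windows of 195 nt on chromosome 4, 11.4% hold these letters at least once on either strand and 0.0997% hold them at least 3 times on the same strand. The letters were picked after the ends were seen, and their presence is a description of the sequence only.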

How the data were processed

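The authors deposited a table for each genotype in which a line stands for a read. Per the file headers, it names the locus and read and gives mapping quality, strand, chromosome, 3′ end coordinate and transcript length. The mapping quality is a score deposited by the authors, from 41 to 44. Per the submitters' processing notes, the genome was TAIR10 and the tools included Bowtie2, bedtools, SAMtools, cutadapt 1.9.1 and bcl2fastq 2.16.0.10; what each did is not given in the sources used here. Positions were taken as 1-based and matched to TAIR10.1.

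Exact repeats of a line were dropped, 27611 in Col-0 and 0 of them at IGN25. This left 141489 reads in Col-0, 109895 in rrp6L1-1, 89304 in rrp6L1-2 and 248940 in nrpe1-11. Shares have exact Clopper-Pearson intervals, folds intervals from the exact conditional binomial, and medians intervals from order statistics. An interval of 0 reads gives the upper limit; folds against 0 use a floor of 3 reads per library. Named positions held at least 5% of the ends in 1 of 3 libraries. Ends in common are the sum over positions of the smaller share. The background covered the 7 loci, each with at least 100 ends per library. The counting steps were tested on simulated data. Python 3.11.15, pandas 2.3.3 and scipy 1.17.1 were used. IGN25, its rules and thresholds were chosen with earlier results of these data known.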

Additional observations from a re-analysis of the deposited data

Results flagged for a closer look

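At 3 of the 15 positions of at least 5% the rrp6L1 alleles differed from Col-0 by at least 4-fold in opposite directions, and beyond 140 nt they also went opposite ways. This count was made at IGN25 alone, so whether it is unusual among the loci is not known. Over all 7 loci, 50.9% of the positions compared at the 1% threshold were past 4-fold from Col-0 in rrp6L1-1 and 49% in rrp6L1-2. These shares count either direction and 1 allele at a time, so they are no background for opposite directions. At 18, 32, 74 and 95 nt the alleles also stood on opposite sides of Col-0, with at least 1 of the folds under 4. For 95 nt the folds over Col-0 were 0.0356 in rrp6L1-1 and 2.27 in rrp6L1-2. The stretch from 95 to 98 nt as a whole was above Col-0 in both alleles. The difference between the alleles was not tested, since each is 1 library. Ends at 24 nt were 20.4-fold more frequent than in Col-0 in rrp6L1-1 (17.4 to 24.0) and 7.27-fold less frequent in rrp6L1-2 (4.06 to 14.3), a difference of -12.8 percentage points for rrp6L1-2 minus rrp6L1-1. Ends at 45 nt were 40.1-fold more frequent in rrp6L1-1 (32.0 to 50.9) and 5.57-fold less frequent in rrp6L1-2 (2.58 to 14.3), a difference of -11.2 points. Ends at 98 nt were 453-fold more frequent in rrp6L1-1 (293 to 742), while rrp6L1-2 had 1 read there, a share 9.75-fold lower than in Col-0 with a counting interval of 1.56 to 404, and the difference was -31.9 points. Ends beyond 140 nt, the 90th percentile of wild-type lengths, made up 1.05% (Col-0), 0.160% (rrp6L1-1) and 10.4% (rrp6L1-2), a difference of 10.2 points. The limit lies on a Col-0 peak: with ends at 140 nt included, the shares were 11.5%, 0.216% and 13.4%. The rrp6L1-2 ends beyond the limit lay mostly at 145 nt, with 8.17% of all its ends, and at 142 nt, with 1.95%. From 151 to 200 nt both mutants were below Col-0, with 0.103% in rrp6L1-1 and 1 read in rrp6L1-2 against 0.937%.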

How the results depend on the processing

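Of 75 values under alternative settings, 26 stayed within the interval of the reported value or within 1.5 times of a count, 44 moved and 5 turned in sign. Ends in common had no interval, so each of their alternative values counted as moved unless it was identical. Apart from what the settings do by construction, the cause of the changes was not tested. For the displacement in rrp6L1-1, rrp6L1-2 and rrp6L1-2 minus rrp6L1-1, in this order, the mean gave 12.2, 12.1 and -0.105 nt, distinct positions -13.5, 11 and 24.5 nt, omitting each library's leading position -5, 36 and 41 nt, leaving out positions before A 26, 14 and -12 nt, and the highest mapping quality score 26, -16 and -42 nt. Mean lengths of Col-0, rrp6L1-1 and rrp6L1-2 were 54.0, 66.3 and 66.2 nt. Counting lines as deposited gave a Col-0 share of 16.8%. Positions past 4-fold numbered 25 and 22 against Col-0 with a minimum share of 0.5%, and 11 between the alleles with windows of 5 nt. Ends in common for rrp6L1-1 and Col-0, rrp6L1-2 and Col-0, and the alleles were 21.7%, 43.97% and 23.3% with windows of 5 nt, 44.6%, 48.8% and 38.9% with 10 nt, and 57.5%, 69.3% and 79.4% with 25 nt. Shifted by 12 nt they were 57.5%, 57.0% and 51.6%, and without positions before A 11.6%, 40.1% and 7.53%. Ends beyond the limit from 75% of the Col-0 ends, 74 nt, were 19.6% (Col-0), 48.8% (rrp6L1-1) and 49.5% (rrp6L1-2); ends at or beyond 140 nt were 11.5% in Col-0 and 13.4% in rrp6L1-2. The largest window difference from Col-0 was 34.7 points in rrp6L1-1 and -15.1 points in rrp6L1-2 with windows of 50 nt, the latter from 1 to 50 nt, and 37.4 and -28.5 points with shifted windows, the latter from 39 to 63 nt. By distinct positions, 30.6%, 28.4% and 30.2% lay before A in Col-0, rrp6L1-1 and rrp6L1-2. No paired analysis was possible because each genotype is 1 library.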
